A study of Mus musculus with 48 samples.

Results

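The ubiquitin-specific proteases were followed through an hourly liver time course. Members were all genes whose symbol in the array annotation is Usp followed by a number, which gave 51 of 18194 genes with 1 symbol per probe set. They were read by 128 probe sets, and each gene was represented by its probe set of highest mean. Among the 51 symbols, Usp6nl is a Rab GTPase-activating protein relative and Usp46os2 an RNA transcribed opposite Usp46, so that 49 genes belong to the protease family itself. Livers came from 6-week-old male C57BL/6J mice, wild type, kept in cycles of 12 h light and 12 h dark for a week and then in constant darkness. From circadian time 18 (CT18) to CT65, the tissue of 3 to 5 mice per hour was combined into 1 pool and read on 1 Affymetrix mouse array. In this count CT0 marks the start of the subjective day and CT12 that of the subjective night. The 24 pools up to CT41 are called the first cycle, the 24 from CT42 on the second. There were 48 pools, 1 per hour and none replicated, so every error and p-value rests on the scatter of the pools around a fitted curve.

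Ubiquitin-specific proteases are cysteine proteases that remove ubiquitin, a small protein tag, from other proteins. They oppose the ubiquitin ligases, and in doing so can spare a protein from the proteasome, change its place in the cell or alter a histone mark. Usp2 is known as an output of the circadian clock in liver and other tissues, where its transcript rises and falls daily.

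Intensities are the deposited values on a linear scale after background correction and normalization. They depend on the probes, so the brightness of 2 probe sets does not rank the levels of 2 genes. Of the 51 genes, 40 had a mean intensity of at least 100 and 11 were dimmer, close to the background. Hepatocyte transcripts marked the tissue as liver, with summed intensities of Alb, Ttr, Apoa1, Fgb and Cps1 between 3088850 and 3412180 over CT18 to CT65. Pancreatic acinar markers were uneven, with a summed intensity of 190499 in the pool of CT25 against a median of 6477 over CT18 to CT59.

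The libraries labelled CT53, CT54 and CT55 carried clock genes in an order unlike their labels. Arntl, which encodes the clock activator BMAL1, read 3430.9 in CT52, 319.0 in CT53, 442.9 in CT54, 1128.2 in CT55 and 129.7 in CT56. Dbp, a clock-driven transcription factor, read 3464.1, 63916.9, 50015.5, 16032.0 and 97446.7 in the same pools. Of 10 listed clock genes with a 24 h amplitude of at least 1 on the log2 scale, 7 ran from CT53 to CT55 against the direction of their change from CT52 to CT56 and 0 ran with it. Of 84 genes on the array with such an amplitude, Usp2 among them, 43 ran against the order and 4 with it. The cause was not tested. Where leaving out the libraries labelled CT53 to CT55 ended a call of a member in limma, this is given beside it. The G-test needs evenly spaced pools and was not run without them. A second stretch, CT60 to CT65, correlated less with the other pools, with a mean of the median correlations of 0.9888 against 0.9938 for CT18 to CT59. With it left out, the Fourier frequencies of the G-test include neither 24 h nor 12 h. Its q without that stretch is therefore not comparable with that over all pools.

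Promoters are shown for Usp2 and for called genes whose window holds a motif, since clock factors are known to act at short DNA elements. RefSeq (GRCm38.p6) supplied 250 bases before and 50 after the start of 39 Usp genes, 40 promoters in all. The E-box CACGTG, bound by the clock activators, was searched on both strands, with the D-box TTATGTAA and the ROR element TAGGTCA. An E-box stood in 5 of the 40 promoters, those of Usp16, Usp31, Usp32, Usp4 and Usp6nl, against 7.15% of 32851 promoters. The D-box was in 0 of the 40, against 0.938% of all promoters, and the ROR element in 0, against 2.61%. Usp2 is given for its large rhythm (chr9:44084670-44084969, plus strand), Usp32 as a gene called with a 24 h period (chr11:85139906-85140205, minus strand) and Usp16 as one called with a 12 h period (chr16:87454735-87455034, plus strand). Usp32 and Usp16 were picked because their windows hold an E-box. The windows of Usp12, Usp47 and Usp28, which were also called, held none of these motifs. The other called genes, Usp18, Usp9x and Usp39, were not among the 39 and were not searched. Capitals mark an E-box.
Usp2: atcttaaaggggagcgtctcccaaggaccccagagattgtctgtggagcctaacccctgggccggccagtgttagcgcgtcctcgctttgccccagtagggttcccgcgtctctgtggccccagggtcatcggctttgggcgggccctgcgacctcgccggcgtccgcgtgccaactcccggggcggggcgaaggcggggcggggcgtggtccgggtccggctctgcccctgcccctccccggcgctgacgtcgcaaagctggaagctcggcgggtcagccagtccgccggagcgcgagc
Usp32: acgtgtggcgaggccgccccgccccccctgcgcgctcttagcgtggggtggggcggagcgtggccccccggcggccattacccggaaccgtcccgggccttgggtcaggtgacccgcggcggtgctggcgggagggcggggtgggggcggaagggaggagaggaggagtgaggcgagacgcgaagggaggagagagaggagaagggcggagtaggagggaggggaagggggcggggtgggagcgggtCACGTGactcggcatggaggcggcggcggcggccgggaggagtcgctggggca
Usp16: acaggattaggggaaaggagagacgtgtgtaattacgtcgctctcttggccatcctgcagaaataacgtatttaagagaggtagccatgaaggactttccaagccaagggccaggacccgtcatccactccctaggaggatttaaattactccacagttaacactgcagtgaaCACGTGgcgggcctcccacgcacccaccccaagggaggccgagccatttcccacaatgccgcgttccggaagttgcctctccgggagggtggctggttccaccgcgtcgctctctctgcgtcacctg
The E-box of Usp32 began 3 bases before the start of the gene and that of Usp16 began 77 bases before it. The Usp2 window held none of the 3 motifs. The window covers the 1 start that the table gives for Usp2, a gene with several reported transcripts, and says nothing of motifs elsewhere.

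Usp2, which removes ubiquitin from a range of regulators of the cell cycle, metabolism and the clock, had by far the widest daily range of the family. Its intensity ran from 148.9 to 24912.2 over the 48 pools, with a median of 3858. In the first cycle the lowest value, 148.9, was in CT27 and the highest, 24912.2, in CT36, a 167-fold range. In the second cycle the lowest, 151.8, was in CT52 and the highest, 16477.4, in CT58, a 109-fold range. The transcript was thus near its floor shortly after subjective dawn and at its top around subjective dusk on both days.

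The rise was steeper than the fall. Usp2 read 239.1 in CT28, 593.8 in CT29, 2497.0 in CT30 and 6613.6 in CT31. After CT36 it took until CT46 to drop to 1032.0 and until CT52 to reach 151.8. In the first cycle 18 of 24 pools lay above the geometric midpoint of lowest and highest, and in the second 17 of 24. The fit with harmonics gave a 12 h component of amplitude 1.08 ± 0.16 (SE) beside the 24 h component.

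The 24 h component of Usp2 had an amplitude of 2.53 ± 0.16 (SE) on the log2 scale, a fitted peak-to-trough fold of 33.4, and peaked at CT13.2 ± 0.24. The family was set against Usp2 because of this rhythm, so its values are a description and carry no test. The amplitude ranked 3 among 18194 genes, behind Dbp at 3.85 and Arntl at 2.62. Without CT53 to CT55, where Usp2 read 3072.9, 1943.2 and 586.5 between 151.8 in CT52 and 11493.7 in CT56, the amplitude was 2.62. It was 2.68 without CT60 to CT65, 2.64 in the first cycle alone and 2.09 in the second.

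The second probe set for Usp2 was dimmer, from 39.7 in CT51 to 2141.2 in CT33, and followed the first with a Pearson r of 0.967 over the 48 pools. Its 24 h amplitude was 2.29 ± 0.14 and its peak CT12.5. Both probe sets therefore showed the wide swing.

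The other 50 genes moved little beside it. Their median 24 h amplitude was 0.0815, against 0.0644 over all genes. Where the mean was at least 100 it was 0.123 against 0.126. The next highest amplitude was 0.437 for Usp18. Usp2 thus had 5.79 times the log2 amplitude of the next member, and 3 of the other 50 genes exceeded an amplitude of 0.25. Measured without a fit, as the ratio of the 95th to the 5th percentile of intensity, Usp2 spanned 78.5-fold, and the other members between 1.07-fold and 3.62-fold with a median of 1.53-fold. Usp2 stood first in the family under all 7 other settings tried, with 4.63 times the next amplitude in the second cycle alone and 6.71 times after quantile normalization. The plot of Usp2 over its family shows the scale of this difference.

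**Figure D1:**
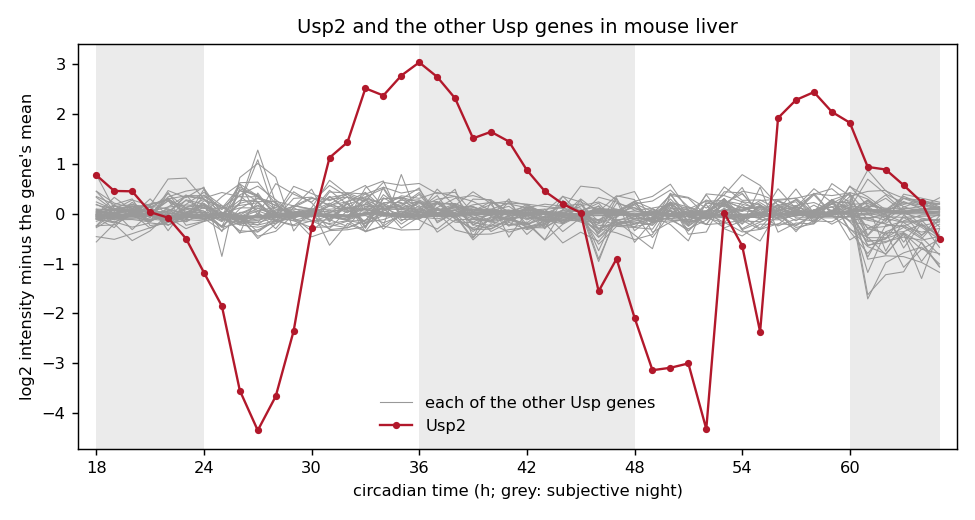
Log2 intensity minus each gene's own mean against circadian time for Usp2 (red points) and each of the other 50 Usp genes (grey lines), 1 pool per hour. Usp2 spans 167-fold, from 148.9 in CT27 to 24912.2 in CT36, and the next widest member, Usp40, 6.21-fold. The fitted 24 h amplitude is 2.53 for Usp2 and at most 0.437 for the others.

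Across all genes with a mean of at least 100, the profiles most like that of Usp2 over the 48 pools belonged to Wee1 (r = 0.924), Coq10b (0.906), Ak4 (0.894), Noct (0.892), Serpina6 (0.876) and Mknk2 (0.873). Wee1 encodes a kinase that holds back entry into mitosis, Coq10b a coenzyme Q binding protein, Ak4 a mitochondrial adenylate kinase, Noct the rhythmic phosphatase nocturnin, Serpina6 the corticosteroid-binding globulin and Mknk2 a kinase of a translation initiation factor. Wee1 ran from 417.3 in CT27 to 4752.9 in CT34 and peaked at CT13.0 with an amplitude of 1.42 ± 0.08. Noct ran from 294.4 to 27079.6 with an amplitude of 2.20 ± 0.17. The most opposed profiles were those of S100a10 (r = -0.875), Grk5 (-0.860), Appl1 (-0.848) and Insig2 (-0.833), whose 24 h components peaked between CT0.36 and CT1.58. All these points share the same 48 libraries, and the 6 most similar genes were also the 6 most similar without CT53 to CT55. Within the family, no other member correlated with Usp2 beyond 0.391 (Usp16) or below -0.390 (Usp20, chosen after its values were seen).

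A transcript was called rhythmic when both Fisher's G-test and a cosine fit built after COSOPT gave q-values under 0.05, and was placed by its fitted period. With a 24 h period (over 20 and under 30 h), 6 of 51 Usp genes were called, 11.8% against 14.2% of all genes. All of these had a mean of at least 100, where the share was 15% of 40 Usp genes against 22.3% of all such genes. Over all 48 pools both shares were below those of all genes. Without CT60 to CT65 the family had 9 of 51 (17.6%) against 12.8% of all genes. Where the mean was at least 100 it had 6 of 40 (15%) against 18.7%. The G-test then had no frequency at 24 h. Beside Usp2, whose rhythm was known when the family was chosen, those called over all pools were Usp18, Usp12, Usp9x, Usp32 and Usp47. In limma, each of these 5 also had a 24 h component, and their amplitudes lay between 0.129 and 0.437.

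Usp18, which removes the ubiquitin-like protein ISG15 and restrains interferon signaling, ran from 782.3 in CT49 through a median of 1252 to 2191.4 in CT54. Of its 5 lowest pools, CT49, CT44, CT63, CT18 and CT46, 4 fell in the subjective night. In the first cycle the extremes were 858.9 in CT18 and 1933.5 in CT28. Its amplitude was 0.437 ± 0.054, a fitted 1.83-fold range, with the peak at CT6.95 ± 0.50 (limma adjusted p = 9.64e-08, G-test q = 3.37e-06). The amplitudes of the cycles were close, 0.430 and 0.441. The G-test q was 0.0108 without CT60 to CT65, where that test has no 24 h frequency.

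Usp12, which forms complexes with the WD-repeat proteins Wdr48 and Wdr20, was the only one of these 5 to peak at night. It ran from 1920 in CT49 through a median of 2655 to 3697 in CT62, and in the first cycle from 1954.6 in CT27 to 3658.2 in CT18. The amplitude was 0.224 ± 0.031 and the peak CT16.4 ± 0.58 (limma adjusted p = 1.61e-06, G-test q = 3.03e-05). Its 5 lowest pools, CT49, CT27, CT57, CT28 and CT33, all fell in the subjective day.

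Usp9x, an X-linked member that stabilizes survival and signaling proteins, ran from 4008.8 in CT39 through a median of 5814 to 8019.6 in CT26. Its amplitude was 0.199 ± 0.032 and its peak CT6.74 ± 0.66 (limma adjusted p = 2.31e-05). The G-test q was 0.0398, close to the threshold, and rose to 0.0592 on linear intensities and 0.0774 after quantile normalization.

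Usp32, a membrane-associated member, ran from 6084.3 in CT64 through a median of 8634 to 11319.8 in CT32. Its amplitude was 0.160 ± 0.027 and its peak CT5.06 ± 0.71 (limma adjusted p = 6.05e-05, G-test q = 0.0155). The lowest 4 pools were CT61 to CT64. Without CT60 to CT65 the limma adjusted p was 0.00188. The G-test, then without a 24 h frequency, gave a q of 0.296.

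Usp47, known from base excision repair, ran from 7801.3 in CT25 through a median of 9428 to 11674 in CT27. Its amplitude of 0.129 ± 0.022, a fitted 1.20-fold range, was the smallest of the 5, with the peak at CT8.46 ± 0.66 (limma adjusted p = 6.11e-05, G-test q = 0.0059). Leaving out CT60 to CT65 gave a limma adjusted p of 0.000131. The G-test, then without a 24 h frequency, gave a q of 0.208. Without CT53 to CT55 all 5 genes kept a 24 h component in limma, with adjusted p between 3.02e-06 and 0.00111.

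**Figure D2:**
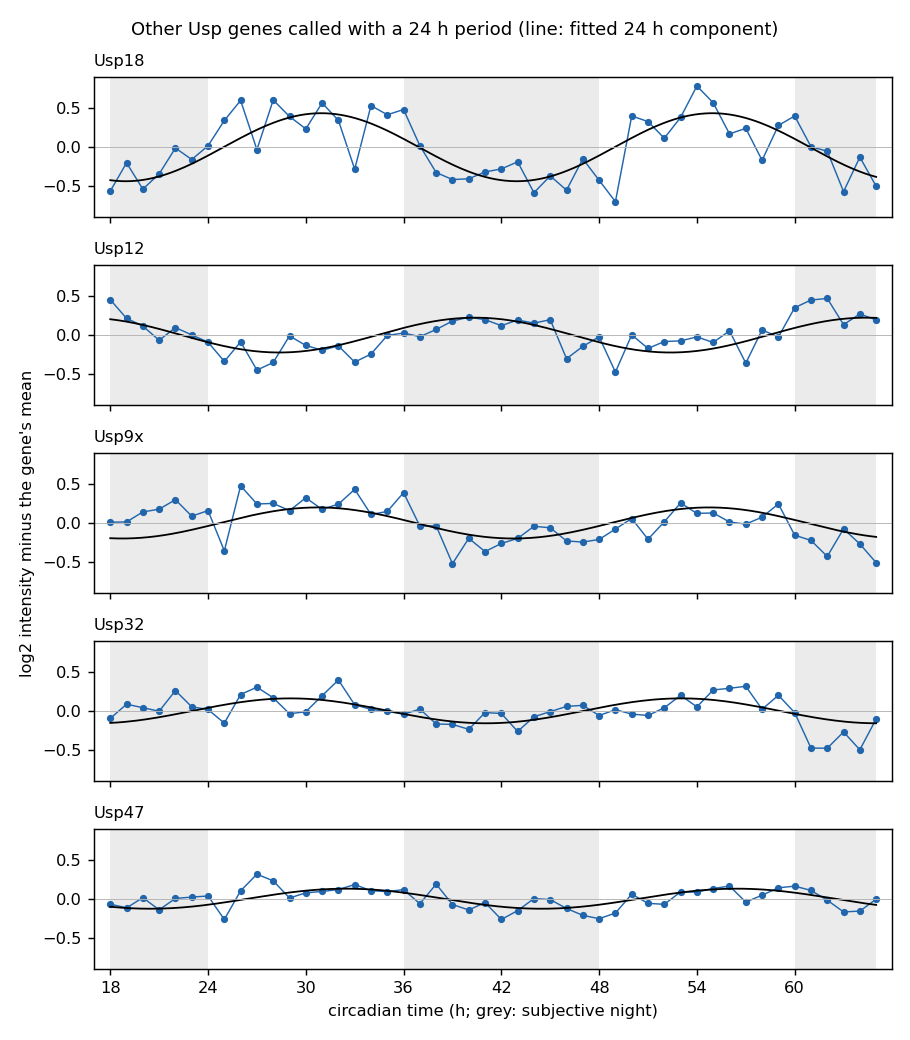
Log2 intensity minus the gene's mean against circadian time for the 5 genes called with a 24 h period beside Usp2, 1 pool per point, with the fitted 24 h component as a black line. Usp18, Usp9x, Usp32 and Usp47 peak in the subjective day, between CT5.06 and CT8.46, and Usp12 at CT16.4.

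With a 12 h period (over 10 and under 14 h), 3 of 51 genes were called, 5.88% against 1.13% of all genes. They were Usp16, Usp28 and Usp39. All 3 had a mean of at least 100, as did 40 of 51 Usp genes and 11186 of 18194 genes. The share of all genes of that brightness was not counted for this call. The count by both tests was 0 of 51 without CT60 to CT65, against 0.33% of all genes. With those pools left out, no Fourier frequency of the G-test falls at 12 h. This count therefore cannot show whether the 12 h rhythms depend on those pools. Usp16, which removes ubiquitin from histone H2A, ran from 2580.3 in CT19 through a median of 3496 to 6753.6 in CT61. Its 12 h amplitude was 0.190 ± 0.028 with peaks at CT0.37 and 12 h later, and its 24 h amplitude 0.183 ± 0.030 (limma adjusted p = 4.12e-05 and 3.67e-05). The G-test placed its strongest frequency at 24 h and the cosine fit at 12.3 h. The G-test q of 0.00695 became 0.218 without CT60 to CT65, where the limma adjusted p of the 12 h component was 2.30e-05.

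Usp28, known for stabilizing MYC, ran from 654.3 in CT62 through a median of 1074 to 1616.4 in CT45. Its 12 h amplitude was 0.204 ± 0.047 with a peak at CT8.68 and 12 h later (limma adjusted p = 0.0146, G-test q = 0.0401). After quantile normalization the G-test q was 0.442 and the limma adjusted p 0.0597. Its 4 highest pools were CT45, CT46, CT34 and CT56, which read 1616.4, 1571.8, 1561.0 and 1560.3.

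Usp39, a member without protease activity that works in the spliceosome, ran from 4005.4 in CT54 through a median of 5148 to 7176.8 in CT50. Its 12 h amplitude was 0.176 ± 0.029 with a peak at CT1.67 and 12 h later (limma adjusted p = 0.000178, G-test q = 0.0461). The G-test q was 0.0512 on linear intensities and 0.107 without CT60 to CT65, where the limma adjusted p was 0.00013. In limma the 12 h component of all 3 genes kept an adjusted p under the threshold without CT60 to CT65 and without CT53 to CT55.

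**Figure D3:**
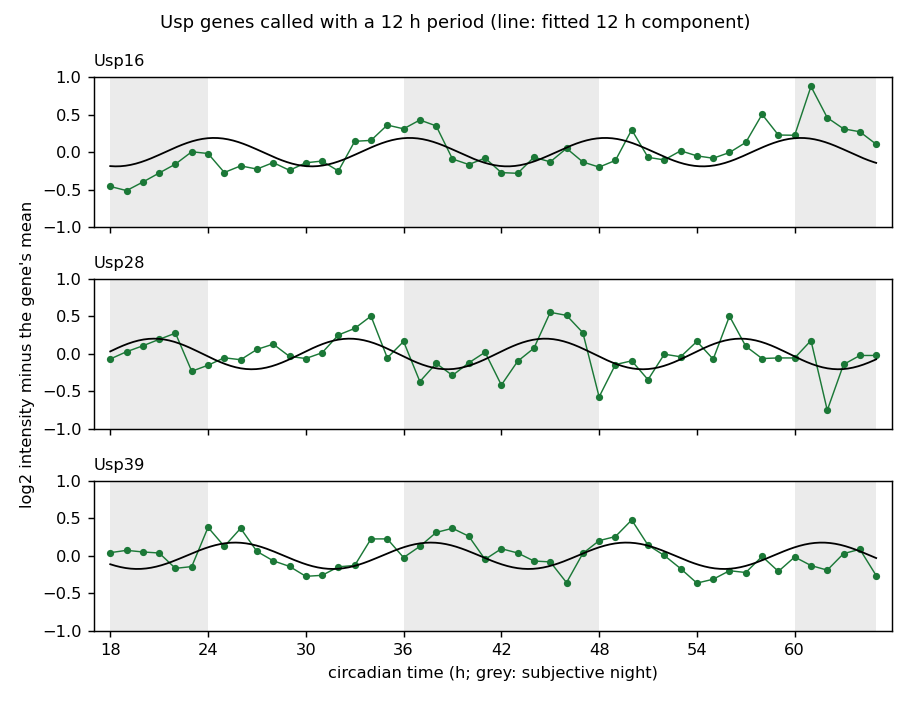
Log2 intensity minus the gene's mean against circadian time for Usp16, Usp28 and Usp39, 1 pool per point, with the fitted 12 h component as a black line. The fitted amplitudes are 0.190, 0.204 and 0.176, and Usp16 reaches its highest value, 6753.6, in CT61.

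With limma, 7 of 51 genes had a 12 h component at an adjusted p under 0.05, 13.7% against 7.13% of all genes, and 17.5% against 11.6% where the mean was at least 100. Apart from Usp2 and the 3 genes above they were Usp25, Usp32 and Usp48, with adjusted p of 0.0468, 0.0263 and 0.0315. None of these 3 held throughout. Leaving out CT53 to CT55 gave Usp25 a limma adjusted p of 0.0531 and Usp48 one of 0.0641, and leaving out CT60 to CT65 gave Usp32 one of 0.208. The count was 6 of 51 in either case, 11.8% against 6.18% and 5.9% of all genes. With an 8 h period (over 7 and under 9 h), 0 of 51 genes were called by both tests, where 0.39% of all genes were called. In limma 1 of 51 genes had an 8 h component, against 2.13% of all genes. That gene was Usp15, named for this count after its values were seen, with an 8 h amplitude of 0.164 ± 0.036 (limma adjusted p = 0.0304), and no gene was counted without CT60 to CT65.

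The harmonic fit in limma was more permissive for 24 h rhythms than the 2 tests together. It gave a 24 h component in 26 of 51 Usp genes, 51.0% against 52.7% of all genes. Among those with a mean of at least 100 it gave 21 of 40, 52.5% against 56.4%. Over all 48 pools neither share exceeded that of all genes. Over all 51 members this order turned when pools were left out, with shares still near those of all genes. The count for the family was 17 of 51 (33.3%) both without CT60 to CT65 and without CT53 to CT55, while 29.2% and 27.6% of all genes were then called. Among genes with a mean of at least 100 the family stayed below, with 16 of 40 (40%) against 45.5% and 17 of 40 (42.5%) against 43%. The 9 members that lost the call without CT53 to CT55 were Usp3, Usp5, Usp21, Usp40 and 5 dim genes.

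Where the mean was at least 100, 15 of the 21 Usp genes with a 24 h component peaked between CT4 and CT10, in the middle of the subjective day, 71.4% against 38.6% of all such genes. The window was chosen after the peaks were seen, and the share is a description. It was 9 of 16 genes (56.2% against 36.7%) without CT60 to CT65 and 11 of 17 (64.7% against 38.7%) without CT53 to CT55. After quantile normalization it was 10 of 19 (52.6% against 31.3%). The others peaked at CT11.6 (Usp16), at CT13.2 (Usp2) and between CT15.0 and CT16.4 (Usp1, Usp12, Usp15 and Usp46). Of these, Usp1, Usp12 and Usp46 encode proteins that bind the same partner, Wdr48. Wdr48 itself was not called with a 24 h component, with an amplitude of 0.0636 ± 0.044 (limma adjusted p = 0.432). Usp1, Usp15 and Usp46 were chosen after their values were seen. Without CT60 to CT65 the limma adjusted p of the 24 h component was 0.0682 for Usp1 and 0.203 for Usp15, past the threshold. It was then 0.0415 for Usp46 and 4.43e-05 for Usp12.

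**Figure D4:**
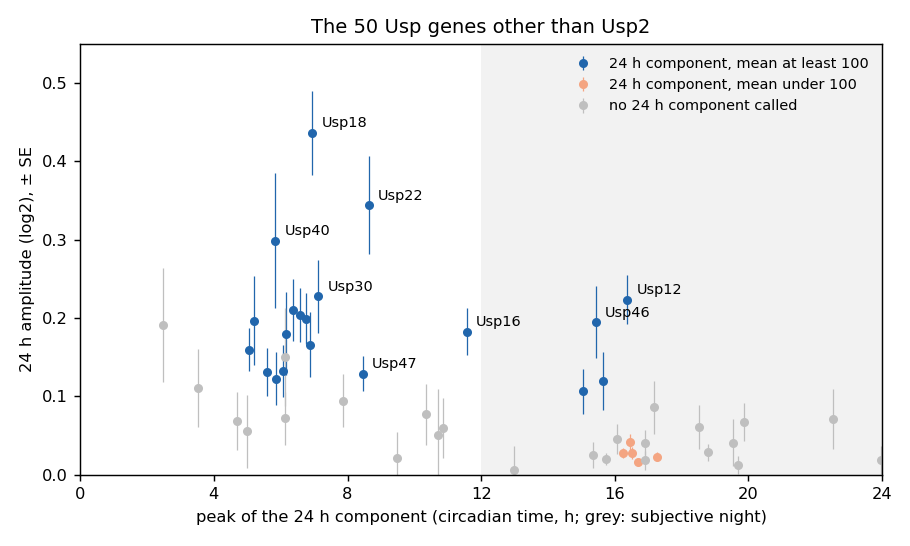
24 h amplitude on the log2 scale (± SE) against the circadian time of the fitted peak for the 50 Usp genes other than Usp2, coloured by whether limma called a 24 h component and by mean intensity. Most called genes sit between CT5 and CT9, 4 brighter ones between CT15 and CT17, and the 5 dim ones lie near CT17 with amplitudes under 0.05.

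Among the 8 other members of largest 24 h amplitude, 5 were not called by both tests. Usp22, the histone protease of the SAGA coactivator, had an amplitude of 0.344 ± 0.062 and a peak at CT8.64. Usp40 had 0.299 ± 0.086 and ran from 307.0 in CT61 to 1906.9 in CT27. Usp30, which sits on the outer mitochondrial membrane and opposes mitophagy, had 0.228 ± 0.046 with a peak at CT7.13. Usp7, which acts on MDM2 and p53, had 0.211 ± 0.040 with a peak at CT6.37 and a G-test q of 0.0583. Usp4 had 0.204 ± 0.035 with a peak at CT6.59 and a G-test q of 0.0643. With the linear trend removed before the G-test, Usp22, Usp30, Usp7 and Usp4 were called by both tests and Usp40 was not. All 5 had a 24 h component in limma, with adjusted p between 5.04e-05 and 0.017. That of Usp40 had an adjusted p of 0.148 without CT60 to CT65 and of 0.133 without CT53 to CT55, while the other 4 stayed under 0.05 in both cases.

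The members of highest mean intensity were Usp47, Usp10, Usp32, Usp7 and Usp24, with means between 6883 and 9428. Usp10, a protease that binds the stress granule protein G3bp1, had no 24 h component past the threshold (limma adjusted p = 0.116). Its values lay between 5367.1 and 12436.7 from CT18 to CT59, and 4 of the 6 pools from CT60 to CT65 were below all of these. Usp24 had none either (limma adjusted p = 0.167).

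The 11 dim genes included the 3 of lowest mean, Usp26, Usp11 and Usp17la, at 51.8, 54.7 and 54.7. In limma 5 of the 11 had a 24 h component, 45.5% against 46.9% of all dim genes. They were Usp17la, Usp26, Usp27x, Usp43 and the Y-linked Usp9y, with amplitudes from 0.016 to 0.0417 and peaks between CT16.2 and CT17.3. Of 3284 dim genes with a 24 h component in limma, 88.7% peaked between CT14 and CT18. The mean log2 intensity of all dim genes itself ran from 5.96 in CT26 to 6.15 in CT65, and the 5 genes followed it with r between 0.852 and 0.973. The part of this common drift in their rhythm was not tested. Without CT60 to CT65 only Usp27x of the 5 was under the threshold (limma adjusted p = 0.0443), and without CT53 to CT55 none was, with adjusted p between 0.0575 and 0.206.

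Between the first and the second cycle, the 24 h component differed in 3 of 51 genes by an interaction in limma, 5.88% against 6.55% of all genes. Usp22 read between 2011.3 and 4758.0 from CT18 to CT59, and 3566.4, 1633.3, 1713.2, 1692.7, 1562.1 and 1359.8 from CT60 to CT65. Of these 6 pools, 5 were below every earlier one. Its 24 h peak was CT11.4 in the first cycle and CT6.86 in the second, with amplitudes of 0.444 and 0.482 (limma adjusted p = 0.00176 for the difference).

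Usp5, which takes apart free ubiquitin chains, read between 1501.8 and 2729.8 from CT18 to CT59, and 1623.1, 1192.1, 1604.1, 982.8, 1264.6 and 1189.3 thereafter. The limma adjusted p was 0.0302 for the difference. Usp8, which works in endosomal sorting, read between 2743.5 and 4370.8 up to CT59, and between 2258.4 and 2817.5 from CT60 to CT65, with 5 of 6 pools below every earlier one (limma adjusted p = 0.0289). Without CT60 to CT65 the adjusted p of Usp22, Usp5 and Usp8 was 0.642, 0.709 and 0.639, and 2 of 18194 genes on the array still differed between cycles (0.011%). Without CT53 to CT55 Usp22 alone of the 51 was called (1.96%), against 3.69% of all genes, and Usp5 and Usp8 had limma adjusted p of 0.0826 and 0.118. With CT38, CT40, CT41 or CT65 left out alone, Usp22 remained as the 1 member called.

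Some brighter members were low in these last pools, and the share that decreased was near that of all genes. From CT36 to CT41, a day earlier, to CT60 to CT65, 25 of 40 Usp genes with a mean of at least 100 decreased, 62.5% against 55.0% of all such genes, and the median change was -0.092 against -0.043 on the log2 scale. The largest decreases after Usp2 (-1.46) were those of Usp22 (-1.04), Usp10 (-0.95), Usp5 (-0.82) and Usp40 (-0.80). The largest increases were those of Usp16 (0.25), Usp15 (0.21), Usp45 (0.21) and Usp12 (0.20), named here after their values were seen. Between the same pools the median of the summed stellate cell and pericyte markers fell by 0.46 on the log2 scale, with sums of 16406.6 to 22943.7 from CT36 to CT41 and 12465.5 to 24414.6 from CT60 to CT65. That of pancreatic acinar markers was 0.55 higher, and those of hepatocytes, sinusoidal endothelium and Kupffer cells moved by 0.01, 0.05 and -0.08. In bulk liver, fewer cells of a type and less RNA per cell cannot be told apart, and the part of cell composition in these decreases was not tested.

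**Figure D5:**
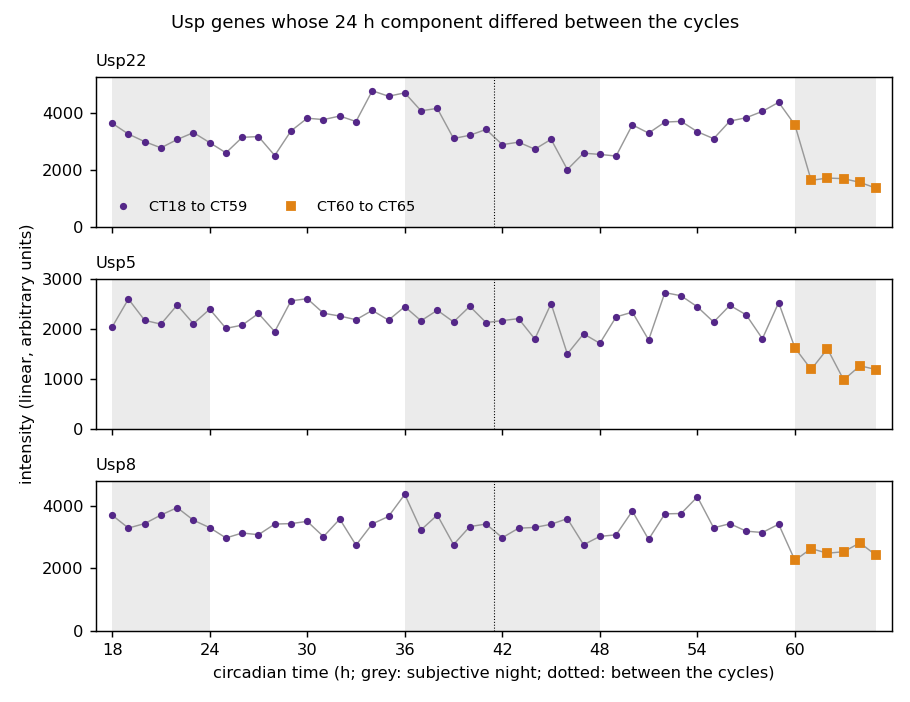
Intensity on a linear scale against circadian time for Usp22, Usp5 and Usp8, 1 pool per point, with CT60 to CT65 as orange squares and a dotted line between the cycles. For Usp22, 5 of the last 6 pools lie below the lowest earlier value of 2011.3.

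Other probe sets of the same gene often told another story. Of 77 further probe sets, 45 had a mean of at least 100, and these correlated with the main probe set of their gene with a median r of 0.383, between -0.522 and 0.967. Among all 77, 3 were called with a 24 h period (Usp2, Usp7 and Usp6nl), 3.9% against 8.85% of the 16764 further probe sets of all genes. With a 12 h period 1 was called (Usp46), 1.3% against 0.722%. For Usp7 that probe set ran from 642.0 to 1859.6 and had an amplitude of 0.446 ± 0.060 with a peak at CT1.80, r = 0.334 with the main one. For Usp46 it had a 12 h amplitude of 0.341 with a limma adjusted p of 0.00011, whereas the main one had 0.154 with 0.103. Whether these probe sets read different transcripts was not tested.

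Other genes of ubiquitin biology were counted in the same way, beside the 14.2% of all genes called with a 24 h period. Of genes with a mean of at least 100, 22.3% were called. Among deubiquitinases of other families, 30 of 37 had a mean of at least 100. Of the 37, 13 were called (35.1%), and the median amplitude was 0.128. The 4 with the smallest G-test p were Otud6b, Otulin, Mindy1 and Bap1. Otud6b had an amplitude of 0.304 ± 0.033 and a peak at CT16.3 (limma adjusted p = 5.22e-09). Otulin, which cuts linear ubiquitin chains, had 0.278 ± 0.036 with a peak at CT11.7. Mindy1 peaked at CT3.43 with 0.323 ± 0.044, and Bap1, the histone H2A protease and tumour suppressor, at CT8.11 with 0.298 ± 0.037. In limma 24 of the 37 had a 24 h component, 64.9% against 52.7% of all genes and 56.4% of those with a mean of at least 100.

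Proteases of SUMO and other ubiquitin-like proteins were called in 5 of 12 cases with a 24 h period, 41.7% against 14.2% of all genes. With a 12 h period 1 more of the 12, Uspl1, was called, against 1.13% of all genes. Desi2 had the largest amplitude, 0.672 ± 0.034, ran from 1537 to 6437 and peaked at CT20.5 (limma adjusted p = 8.45e-19). Ufsp2, Senp5 and Senp6 had amplitudes between 0.172 and 0.184. Of the ubiquitin genes and activating enzymes, 4 of 11 could be read by a probe set with 1 symbol, and Uba6 was called, with 0.346 ± 0.050 and a peak at CT19.1. Of 10 measured partners of Usp proteins 1 was called, Daxx, which binds Usp7, with 0.292 ± 0.048 and a peak at CT4.22.

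Of 9 genes that encode proteins reported as targets of Usp2, 4 were called with a 24 h period, 44.4% against 14.2% of all genes. Arntl, Cry1 and Per1 stand in the list of core clock genes too, and of the remaining targets Nr3c2 alone was called. They were Arntl, with an amplitude of 2.62 ± 0.13 and a peak at CT22.3, Cry1, with 1.42 ± 0.06 and CT19.7, Nr3c2, the mineralocorticoid receptor, with 0.596 ± 0.046 and CT7.84, and Per1, with 0.422 ± 0.068 and CT11.2. Fasn, which makes fatty acids, ran from 6764.5 to 82991.5 and Ccnd1, cyclin D1, from 816.1 to 3323.6. These had a 24 h component in limma only, with amplitudes of 0.461 and 0.272 and adjusted p of 0.00133 and 0.00991. Mdm2, Mdm4 and Aurka had none past the threshold, with limma adjusted p between 0.0794 and 0.246, and Aurka had a mean of 61.2, near the background.

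Core clock genes and outputs served as a scale for Usp2, with 15 of 18 called and a median amplitude of 1.08. Cry1, Dbp, Arntl and Nr1d2 had the smallest G-test p, and Dbp and Nr1d2, with peaks at CT10.2 and CT9.78, came before Usp2. Of 13 measured interferon response genes, to which Usp18 belongs, 11 had a mean of at least 100. Of the 13, 3 were called, 23.1% against 14.2% of all genes and 22.3% of those with a mean of at least 100. Rsad2, Rtp4 and Dhx58 peaked at CT2.34, CT2.06 and CT0.44, earlier in the day than Usp18 at CT6.95, with amplitudes of 0.420 ± 0.063, 0.239 ± 0.046 and 0.227 ± 0.055.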

How the data were processed

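Liver RNA of 48 hourly pools was read on 1 Affymetrix array each. By the study's methods the authors extracted expression values with GCRMA, and what they deposited is intensity on a linear scale, from 20.6 to 1218380. The submitters' processing notes name MAS5, which the methods give for present calls. Scanner files were not used here. Array medians lay between 95.2 and 110.9, and the number of arrays and the signal over background limit precision. All 45101 probe sets were fitted as log2 values.

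Fisher's G-test used 23 Fourier frequencies over the 48 pools, with 24 h and 12 h among their periods. For the cosine fit, values were detrended by a line, each period between 4 and 30 h was tried (step 0.1 h), and 1000 scramblings of the pools gave its p. Both gave Storey q-values. limma 3.58.1 (R 4.3.3) fitted a trend and pairs at 24, 12 and 8 h with Benjamini-Hochberg adjustment over all probe sets, and the interaction of cycle with the 24 h pair. Python 3.11.15 with numpy 2.4.6, pandas 2.3.3 and matplotlib 3.10.9 did the rest. The steps were tested on simulated data.

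Members, lists and rules for naming were chosen with earlier results of these data known. Named were Usp2, every Usp gene called or differing between cycles, the 8 of largest amplitude, the 5 of highest and 3 of lowest mean, the 6 genes most and 4 least like Usp2, up to 4 called genes per list, and every listed Usp2 target. Of 7 companion lists and 10 lists of cell type markers, counts were read beside those of all genes. Probe sets with several symbols, 4 of them with a Usp symbol, were left out. Alternatives were other scalings, thresholds and tests, left-out pools, single cycles and other probe sets. Leaving out CT53 to CT55, and each pool for the difference between cycles, was chosen after seeing the data.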

Additional observations from a re-analysis of the deposited data

Results flagged for a closer look

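A difference between the first and the second cycle marked 3 Usp genes, by the interaction of cycle and 24 h component in limma. The adjusted p was 0.00176 for Usp22, 0.0302 for Usp5 and 0.0289 for Usp8. In Usp22 the amplitudes of the cycles were 0.444 and 0.482 and the peaks CT11.4 and CT6.86. In Usp5 the amplitudes were 0.151 and 0.343, with peaks at CT11.2 and CT5.34, and in Usp8 they were 0.051 and 0.207, with peaks at CT16.1 and CT3.58. Leaving out CT60 to CT65 ended all 3 calls, with limma adjusted p between 0.639 and 0.709. Without CT53 to CT55 the adjusted p was 0.00665 for Usp22, 0.0826 for Usp5 and 0.118 for Usp8.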

How the results depend on the processing

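Precision is limited by 1 pool per hour and, for dim probe sets, by signal near the background. For most alternatives below the share of all genes was not counted, so a changed count cannot be read as particular to the family. With a 24 h period by both tests, 6 Usp genes were called, 13 when the linear trend was removed before the G-test and 11 at q under 0.1, and the other 10 alternatives gave 4 to 9. With a 12 h period there were 3, 0 without CT60 to CT65, and 1 both with Benjamini-Hochberg adjustment and at q under 0.01. Without CT60 to CT65 the G-test has no frequency at 24 h or 12 h, so those counts are not comparable with the others. The G-test on CT18 to CT65 needs evenly spaced pools and was not run without CT53 to CT55. The limma 24 h count of 26 was 17 without CT60 to CT65, 17 without CT53 to CT55 and 10 in the first cycle alone, and 25 to 29 with each pool left out in turn. The 12 h count of 7 then ranged from 5 to 8, and the 8 h count of 1 from 0 to 2. The 8 h count was 0 without CT60 to CT65 and 0 with no linear trend. Genes differing between cycles numbered 3, 0 without CT60 to CT65 (0.011% of all genes), 1 without CT53 to CT55 (3.69% of all genes), 7 with any probe set of a gene, and 1 to 4 with each pool left out in turn. The highest adjusted p was then 0.0686 for Usp5 (without CT40) and 0.0598 for Usp8 (without CT38). On linear intensities that of Usp5 was 0.0628, and after quantile normalization those of Usp5 and Usp8 were 0.0971 and 0.211. The Usp2 amplitude ranged from 2.48 to 2.64 with each pool left out in turn, and over the other alternatives from 2.09 to 3.15. Over all lists, markers and core clock genes (15 of 18 called) included, 49 genes of 150 were called by both tests, where 14.2% of all genes were. By limma 87 of the 150 were called, where 52.7% of all genes were, and 56.4% of those with a mean of at least 100. Without CT60 to CT65 limma called 73, where 29.2% of all genes and 45.5% of those with a mean of at least 100 were called. By limma the other deubiquitinases numbered 24, the SUMO and similar proteases 8 (8 without CT60 to CT65), ubiquitin and E1 2 (2), partners 6 (3), interferon response 5 (6), hepatocyte 2, Kupffer 4 (4), bile duct 1 (1), lymphocyte 1 (1), neutrophil 2 (1), erythroid 1 and adipocyte 1. The cause of these changes was not tested.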

Other observations

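Lists of cell type markers were counted beside the 14.2% of all genes called with a 24 h period by both tests. Among genes with a mean of at least 100 that share was 22.3%. Markers of sinusoidal endothelium were called in 4 of 6 cases, of Kupffer cells in 2 of 8, of stellate cells and pericytes in 3 of 7 and of hepatocytes in 1 of 5 (Fgb). None of the 4 bile duct, 7 lymphocyte, 6 neutrophil, 2 erythroid, 3 pancreatic acinar and 2 adipocyte markers was called by both tests, while limma gave a 24 h component in 1, 1, 2, 1, 0 and 1 of them. Lyve1, a receptor of sinusoidal endothelium, had an amplitude of 0.390 ± 0.064 and a peak at CT18.0, and Pdgfrb, the growth factor receptor of pericytes, 0.517 ± 0.070 and CT3.47. Fgb, a chain of fibrinogen, had 0.120 ± 0.012 and peaked at CT2.84. Genes are named here after their values were seen.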
